A study of Osmia excavata with 6 samples.

Results

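Leucine-rich repeat proteins are described here in Osmia excavata, a solitary mason bee that spends the winter inside a cocoon. The members are the 56 assembled genes, of 37061 in the expression table, whose protein description contains the words leucine-rich repeat and ends with 1 of 9 bee genera in brackets. The members were chosen by that text alone, but the group itself was selected on how its log2 fold changes looked in the same comparison. Its differences between the treatments are therefore given as a description and support nothing beyond it. Bulk RNA-seq of poly(A)-selected RNA compared 3 control libraries with 3 libraries of water-immersed bees, all of the species Osmia excavata Alfken. The study's title asks how immersion promotes decocooning, the emergence of the bee from its cocoon. The immersion samples are titled as a decocooning group, so the effects of wetting and of emergence cannot be told apart. The tissue label names only the species, and the body part, sex, age, strain and length of immersion are not stated. Nothing says that replicates came from separate animals, so the p-values measure only the spread between these libraries, which may be technical.

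A leucine-rich repeat is a short stretch of protein with leucines at fixed places. Copies of it stack into a curved solenoid whose inner face binds other proteins. In insects such repeats build Toll receptors, hormone receptors with a long extracellular part, guidance and adhesion proteins of the nervous system, and inside the cell scaffolds, kinases, phosphatases and proteins of the ciliary axoneme.

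The libraries held 16765886 to 19953734 estimated counts each, and 92.6% to 94.5% of these fell on genes matching Hymenoptera, the order of bees, wasps and ants. Control 1 stood apart from the other controls. Worm (Caenorhabditis) matches took 0.346% of its counts and 1.405% to 1.498% of the counts in the immersion libraries, against 17.0 estimated counts in control 2 and 4.16 in control 3. The 9250 genes of this order that were tested are called bee genes below. In 74.3% of them control 1 was nearer to the immersion mean than to the mean of controls 2 and 3. Without control 1, edgeR called 4912 of the 9396 genes then tested, and with it none. For this reason results are given for control 1 apart from the other controls. Together the members took 0.411%, 0.434% and 0.451% of the counts in controls 1 to 3 against 0.373%, 0.372% and 0.360% in immersion libraries 1 to 3.

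The descriptions were checked against the domain columns of the same table. For 26 of the 56 members a Pfam domain of the repeat is listed, for 18 only the orthologue group names a repeat, and for 12 neither does. Among the 12 are entries named after the Dictyostelium (slime mould) protein DDB_G0290503 and entries described as extensin-like after plant cell wall proteins. One extensin-like gene, DN8400_c0_g1, carries a chitin-binding domain instead. The gene with the highest level, DN1826_c0_g1, is described as leucine-rich repeat-containing protein 15-like. It is not among the 12, as its orthologue group names a repeat. However, a Pfam domain listed for it is that of an RNA polymerase subunit, and its Swiss-Prot symbol is CRCP. DN3991_c0_g1, described as leucine-rich repeat neuronal protein 1-like, has the Swiss-Prot symbol POLD3, a DNA polymerase delta subunit. The genes are de novo assembled, and 14 members sit in 6 components of the assembly that they share with another member, where reads could be split between copies or pieces of 1 gene. The members best matched Megachile (38), Bombus (5), Habropoda (5), Eufriesea (3), Apis (2), Ceratina (1), Dufourea (1) and Melipona (1). Identifiers are given below without the prefix TRINITY that all of them carry.

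Levels between genes were compared in TPM, the authors' measure of transcript abundance scaled for length and depth. The filter on low counts left 49 of the 56 members for testing, and each of the 7 others had at most 12.9 estimated counts in any library. Over the 6 libraries the mean TPM of the 49 ran from 1.46 to 473, with a median of 13.6, against 22.7 over all tested bee genes. Only 4 of them had a mean over 100 TPM, and 21 had a mean under 10 TPM. The 4 were DN1826_c0_g1 at 473 TPM, the pollen-specific extensin-like protein 2 gene DN1484_c0_g1 at 242 TPM, the transmembrane neuronal protein 4-like gene DN16512_c0_g1 at 183 TPM, and the neuronal protein 2-like gene DN1662_c0_g2 at 125 TPM. The members summed to 2074, 2360 and 2593 TPM in controls 1 to 3 and to 1821, 1708 and 1754 TPM in immersion libraries 1 to 3, so the groups did not overlap. DN1826_c0_g1 alone made up 19.2%, 25.7% and 33.1% of that sum in the controls against 19.7%, 18.9% and 16.7% in the immersion libraries.

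**Figure D1:**
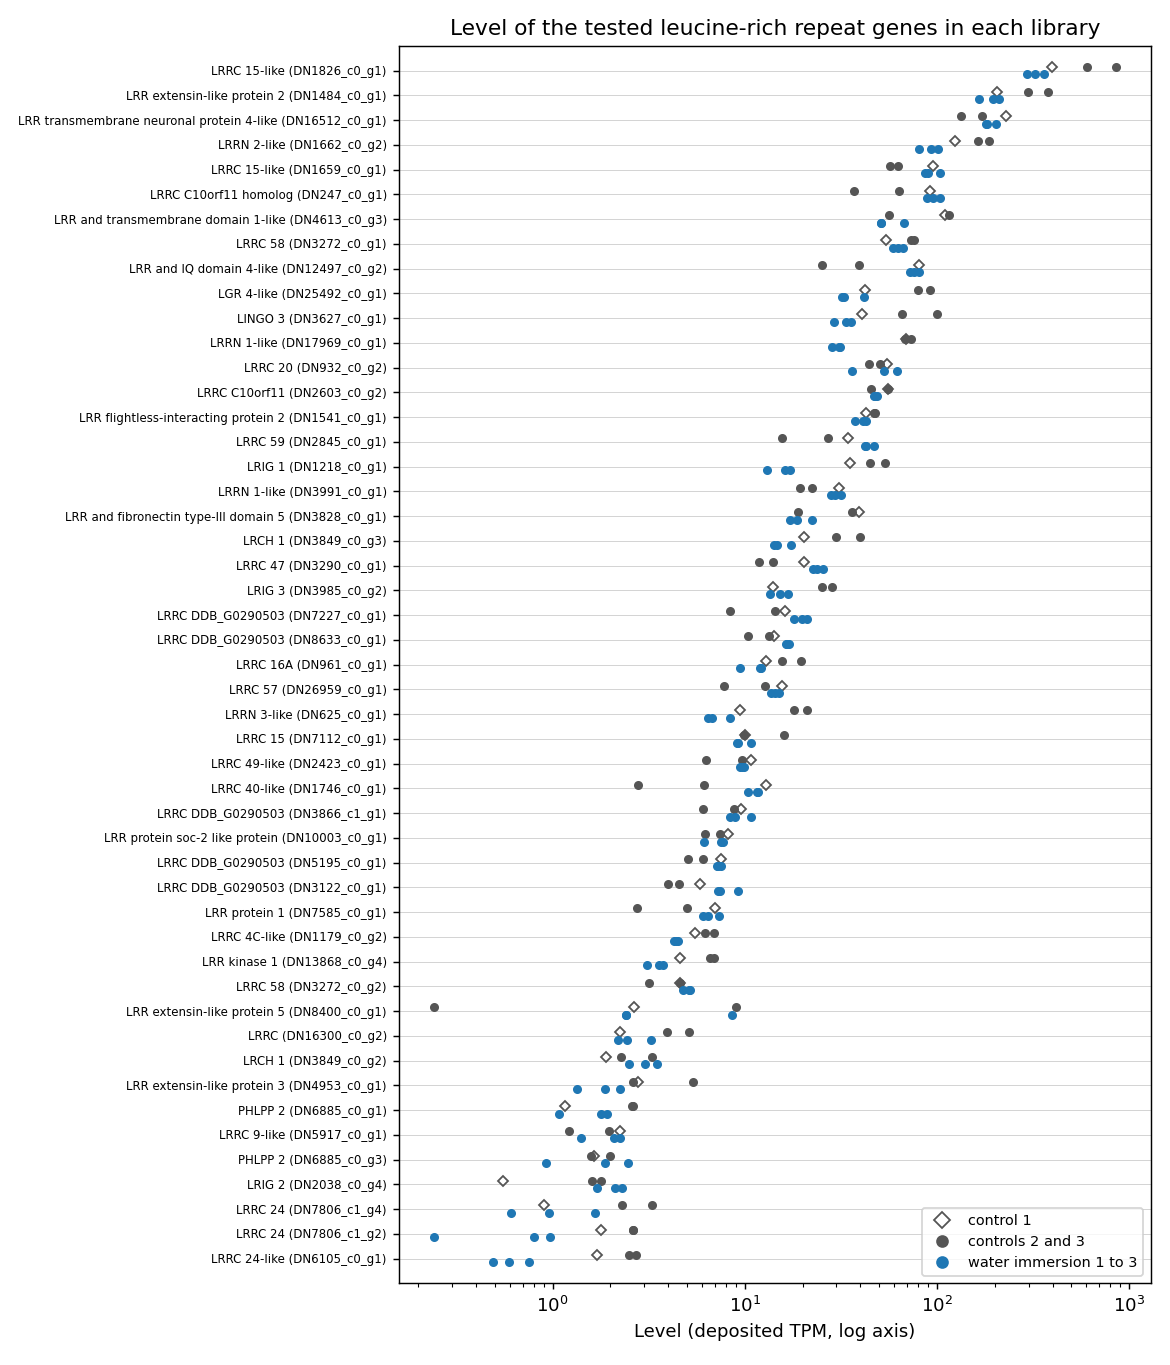
Each row is 1 of the 49 tested members, ordered by mean level, and the horizontal log axis is the deposited TPM in each library (open diamonds control 1, grey circles controls 2 and 3, blue circles the 3 immersion libraries). The row means run from 1.46 to 473 TPM, and 4 of them exceed 100 TPM. LRRC stands for leucine-rich repeat-containing protein, LRRN for neuronal protein, LRIG for repeats and immunoglobulin-like domains, LINGO for nogo receptor-interacting protein, LGR for the G-protein coupled receptor, LRCH for the calponin homology protein and PHLPP for the PH domain phosphatase.

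Between the treatments, no member passed edgeR's quasi-likelihood test at a Benjamini-Hochberg adjusted p of 0.05, the smallest being 0.0639. The same fit called 0 of the 9250 bee genes tested (0%), with the same lowest value. At an unadjusted p under 0.05, 16 of the 49 members were lower after immersion (background 20.6%) and 4 were higher (background 14.2%), together 20 (background 34.8%). In 17 members every immersion library lay below every control (background 22.2%), and in 7 every one lay above (background 24.0%), together 24 (background 46.2%). A log2 fold change above 0 was found in 23 members (background 51.2%). DESeq2 gave 45 of the members an adjusted p and called 11 lower (background 15.5%) and 1 higher (background 7.51%). The median log2 fold change, immersion minus control, was -0.12 over the 49 members and 0.02 over all tested bee genes.

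These counts moved with the control libraries kept. Without control 1, edgeR called 14 members lower (background 26.6%) and 11 higher (background 25.7%). Without control 3 it called 5 lower (background 2.98%) and none higher (background 0.887%). A term marking the 4 libraries that hold worm counts sets immersion against control 1 only, and with it 6 members were lower at an unadjusted p under 0.05 (background 4.89%) and 1 was higher (background 2.71%).

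**Figure D2:**
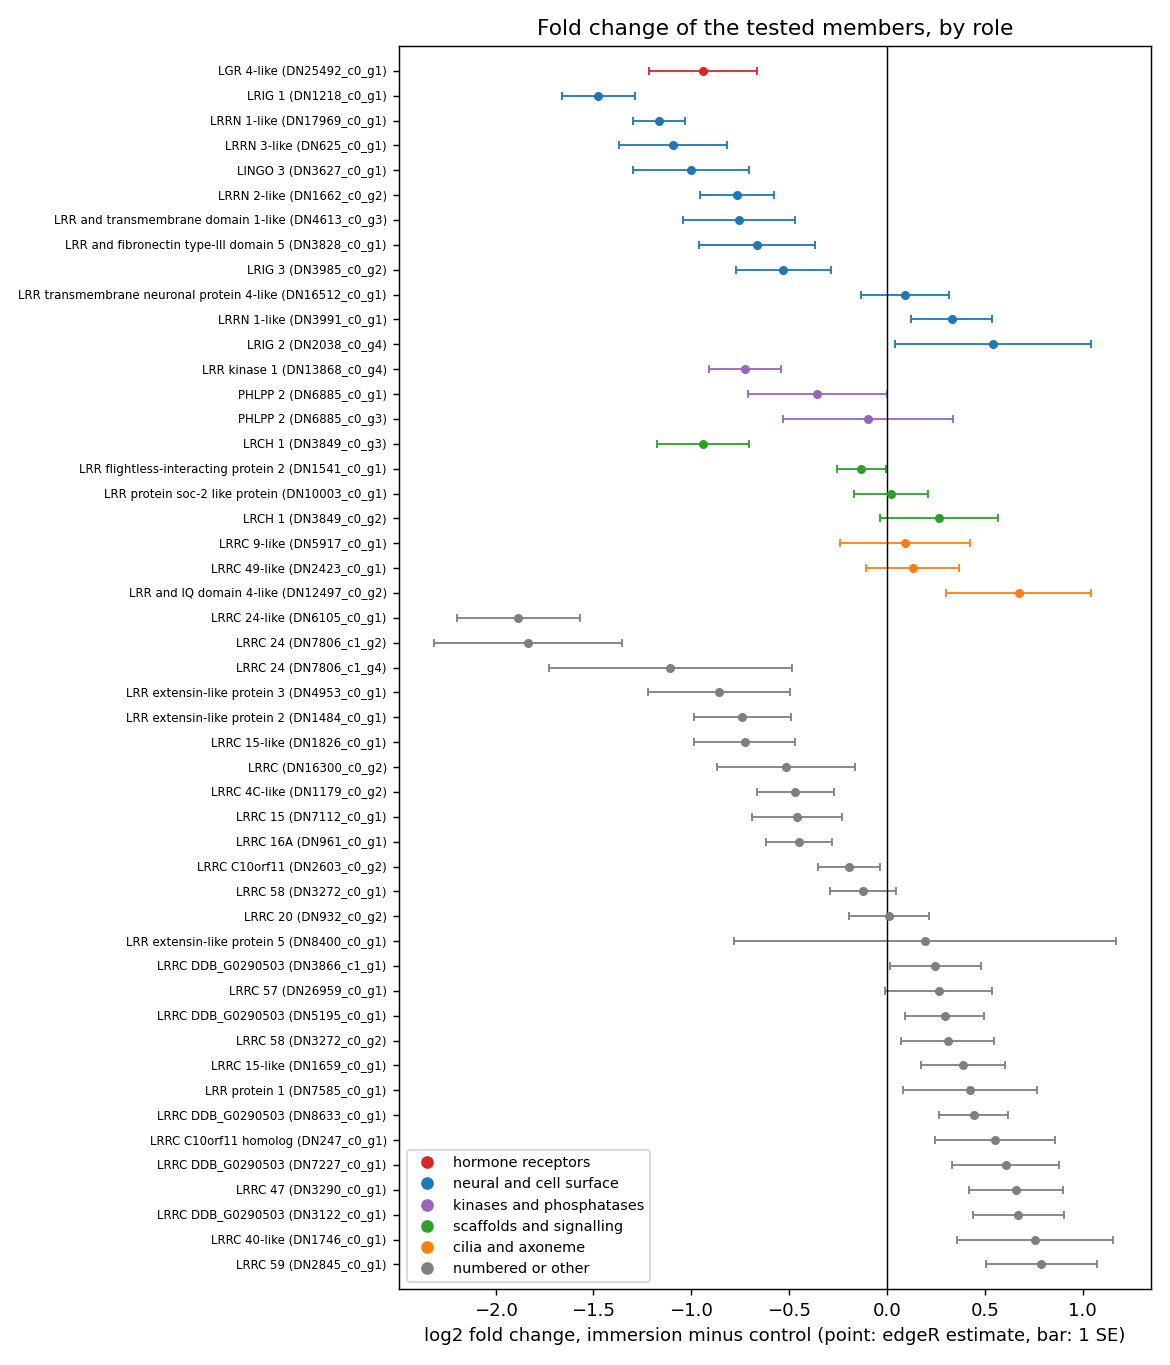
The horizontal axis is the log2 fold change, immersion minus control, of each tested member. The point is the edgeR estimate and the bar is 1 SE (3 libraries a group). Colours show a role assigned from words or protein numbers in the description. Most genes of the nervous system and cell surface lie left of 0, from -1.47 to 0.54, and the genes described only by a protein number reach from -1.88 to 0.79.

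The only member described as a G-protein coupled receptor was DN25492_c0_g1, leucine-rich repeat-containing G-protein coupled receptor 4-like. In vertebrates LGR4 is a receptor for R-spondins, which strengthen Wnt signalling, and in Drosophila a receptor of the same wider family, rickets, binds bursicon, the hormone that tans and hardens the cuticle after eclosion. Its level was 42.1, 79.6 and 92.2 TPM in controls 1 to 3 against 32.2, 32.9 and 41.8 TPM in immersion libraries 1 to 3. In normalised CPM, counts scaled to library size with TMM factors, the controls held 119.7, 208 and 249 and the immersion libraries 88.0, 96.5 and 116. Control 1 lay just above the highest immersion library, and controls 2 and 3 lay far above it. The means were 192 ± 66.0 and 100.1 ± 14.2 (SD, n = 3 each), a log2 fold change of -0.94 ± 0.28 (SE), lower in 3 of 3 immersion libraries, with an edgeR adjusted p of 0.0942. Against control 1 alone the difference was -0.26, and without control 1 it was -1.19 with an edgeR adjusted p of 0.0068.

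Of the hormones that act on leucine-rich repeat receptors, only a bursicon precursor gene, DN13968_c1_g1, was found among the bee genes. It was too low to be tested, at 5.42, 2.28 and 2.44 TPM in controls 1 to 3 against 1.5, 4.19 and 1.52 TPM in the immersion libraries, so the groups overlapped.

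Genes placed with nervous system or cell surface proteins by words in their descriptions made up 13 members, 11 of them tested. Their summed level was 709, 743 and 691 TPM in controls 1 to 3 against 486, 495 and 487 TPM in immersion libraries 1 to 3, with no overlap and with control 1 among the other controls. At an unadjusted p under 0.05, 6 of the 11 were lower (background 20.6%) and 0 were higher (background 14.2%), none passed the adjusted test, and the median log2 fold change was -0.76.

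DN17969_c0_g1, described as leucine-rich repeat neuronal protein 1-like, had little spread within either group. Vertebrate proteins of that name are membrane proteins of neurons. The table's KEGG entry for this gene reads instead toll-like receptor 8, a receptor of innate immunity, so its identity is uncertain. Controls 1 to 3 held 218, 209.7 and 202 normalised CPM, and immersion libraries 1 to 3 held 93.9, 92.5 and 94.5. Both groups were tight, the groups lay far apart, and control 1 was the highest of all. The mean was 2.24-fold higher in the controls (209.9 ± 7.57 against 93.6 ± 1.06, SD, n = 3 each), a log2 fold change of -1.17 ± 0.13 (SE) with an edgeR adjusted p of 0.0639. The difference was -1.22 against control 1 alone, -1.14 without control 1 (edgeR adjusted p = 0.00611) and -1.19 without control 3 (edgeR adjusted p = 0.0112).

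DN1218_c0_g1 is described as leucine-rich repeats and immunoglobulin-like domains protein 1, which in mammals restrains receptors of the epidermal growth factor family. It has no Swiss-Prot symbol, and the symbol Lrig1 stands at another member, DN3985_c0_g2, given below. The controls of DN1218_c0_g1 held 165, 191 and 235 normalised CPM and its immersion libraries 77.5, 62.3 and 73. Every control lay above every immersion library by more than the range within either group. The control mean was 2.78-fold higher (197 ± 35.7 against 70.9 ± 7.79, SD, n = 3 each), a log2 fold change of -1.47 ± 0.19 (SE) with an edgeR adjusted p of 0.0639. Against control 1 alone the difference was -1.22.

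Other genes with the same kind of name differed less. DN3985_c0_g2 is described as protein 3 of the immunoglobulin-like group but has the Swiss-Prot symbol Lrig1. It held 52.1, 85.5 and 100.2 normalised CPM in the controls against 59.9, 52.0 and 52.7 in the immersion libraries. The groups overlapped, and the log2 fold change was -0.53 ± 0.24 (SE), or 0.075 against control 1 alone. DN2038_c0_g4, described as protein 2 of the group, was near the lower end of detection at 0.55 to 2.31 TPM and had a log2 fold change of 0.54 ± 0.50 (SE). An LRIG3 piece of 295 bases, DN24934_c0_g1, had 2, 2.17 and 1.09 estimated counts in the controls against 0 in each immersion library, too few to compare. These 3 genes were named after their values were seen.

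**Figure D3:**
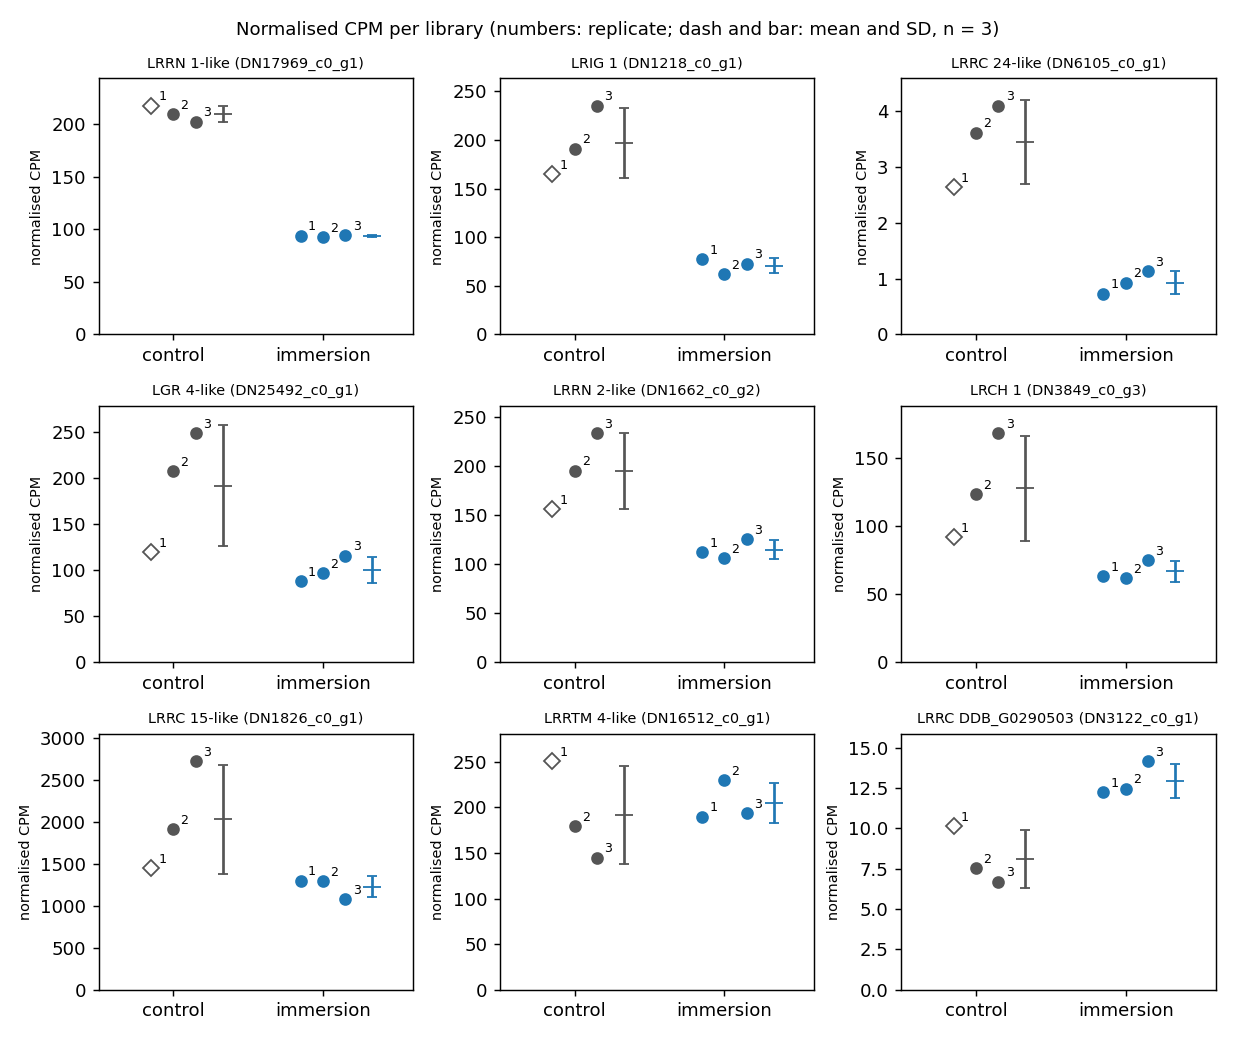
Normalised CPM (linear axes from 0) of 9 members in controls 1 to 3 and immersion libraries 1 to 3, with the replicate number at each point, control 1 as an open diamond, and the group mean and SD (n = 3) beside the points. In DN17969_c0_g1 control 1 lies with the other controls at 218, whereas in DN25492_c0_g1 and DN1826_c0_g1 it lies nearer the immersion libraries. LRRTM stands for leucine-rich repeat transmembrane neuronal protein.

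The remaining neural names with lower means split by where control 1 lay. DN625_c0_g1, neuronal protein 3-like, held 41.1, 71.3 and 86.5 normalised CPM in the controls against 35.1, 29.1 and 28.9 in the immersion libraries, a log2 fold change of -1.09 ± 0.28 (SE). DN3627_c0_g1, described as nogo receptor-interacting protein 3 (LINGO proteins in vertebrates are co-receptors that restrain axon growth), held 275, 401 and 633 in the controls against 231, 203 and 221 in the immersion libraries, a log2 fold change of -1.0 ± 0.30 (SE). DN1662_c0_g2, neuronal protein 2-like, held 155, 195 and 233 in the controls against 112, 106 and 125 in the immersion libraries, a log2 fold change of -0.77 ± 0.19 (SE). In all 3 of these genes the groups did not overlap, control 1 was the lowest control, and the difference against control 1 alone shrank to -0.40, -0.33 and -0.44. Their edgeR adjusted p-values were 0.0907, 0.0957 and 0.0907, each with 3 of 3 immersion libraries lower.

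A different order was seen in DN4613_c0_g3, described as leucine-rich repeat and transmembrane domain-containing protein 1-like. Its controls held 63.7, 67.9 and 34.6 normalised CPM and its immersion libraries 28.2, 40.9 and 29.4, so control 3 was the low control and the groups overlapped. The log2 fold change was -0.76 ± 0.29 (SE), with -0.96 against control 1 alone. DN3828_c0_g1, a fibronectin type-III domain-containing protein 5 entry named after its values were seen, had the same order, with 48.5, 42.4 and 23 in the controls against 22.3, 28.9 and 20.7 in the immersion libraries.

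DN16512_c0_g1, transmembrane neuronal protein 4-like, is the member of the neural group with the highest level. In vertebrates proteins of this name sit at synapses and organise contacts between neurons. It held 251, 179.5 and 145 normalised CPM in the controls against 190.0, 230.2 and 194 in the immersion libraries. The groups overlapped, with control 1 the highest library and control 3 the lowest, and the log2 fold change was 0.09 ± 0.23 (SE).

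General markers of the nervous system are given beside these genes. Of 9 marker genes 8 were tested, none passed the adjusted test in edgeR, and the median log2 fold change was -0.92. At an unadjusted p under 0.05, 6 were lower (background 20.6%) and 0 were higher (background 14.2%). Complexin (DN2071_c1_g1), which clamps synaptic vesicle fusion, held 38.4, 55.4 and 56.1 normalised CPM in the controls against 21.4, 18.8 and 18.3 in the immersion libraries. Synaptotagmin (DN15723_c0_g1), the calcium sensor of vesicle release, had a log2 fold change of 0.18 ± 0.35 (SE), and in it, in the ELAV-like gene and in syntaxin the groups overlapped. The marker sum was 116, 183 and 194 TPM in the controls against 103, 76.3 and 95.4 TPM in the immersion libraries, with 1 marker, another complexin entry, at 0 in every library. In bulk RNA, fewer cells of a type and less RNA per cell cannot be told apart, and the part of these markers in the members' differences was not tested.

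Kinases and phosphatases numbered 3 members, all tested. DN13868_c0_g4, serine/threonine-protein kinase 1 with the Swiss-Prot symbol lrk-1, is the longest member at 8682 bases. Its worm namesake helps to sort synaptic vesicle proteins. It held 32.8, 42.2 and 46.1 normalised CPM in the controls against 25.8, 22.9 and 24.6 in the immersion libraries. The groups did not overlap, and the log2 fold change was -0.72 ± 0.18 (SE) with an edgeR adjusted p of 0.0907, or -0.43 against control 1 alone. DN6885_c0_g1 and DN6885_c0_g3 are both described as PH domain phosphatase 2 and sit in 1 assembly component. PHLPP phosphatases remove an activating phosphate from the kinase Akt in mammals. DN6885_c0_g1 held 3.82, 7.78 and 8.10 normalised CPM in the controls against 5.59, 3.66 and 6.14 in the immersion libraries, and the groups overlapped. The log2 fold changes of the pair were -0.36 ± 0.36 and -0.10 ± 0.43 (SE).

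Scaffold and signalling members numbered 5, of which 4 were tested and 1, DN3849_c0_g3, had an unadjusted p under 0.05 (background in either direction 34.8%). That gene matches Lrch1, a protein with a calponin homology domain, a fold found in many actin-binding proteins. Its controls held 91.5, 123 and 168 normalised CPM and its immersion libraries 62.9, 61.6 and 75.0. The groups did not overlap, control 1 was the control nearest the immersion libraries, and the log2 fold change was -0.94 ± 0.23 (SE) with an edgeR adjusted p of 0.0907. Against control 1 alone the difference was -0.46. A shorter entry of the same component, DN3849_c0_g2, held 1.69, 2.80 and 2.04 in the controls against 2.12, 2.73 and 3.02 in the immersion libraries, so the pieces did not share a direction.

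DN1541_c0_g1 matches Lrrfip2, whose vertebrate form binds flightless-1, an actin-remodelling protein. It held 75.7, 77.5 and 82.1 normalised CPM in the controls against 73.9, 69.6 and 71.5 in the immersion libraries. The groups did not overlap but lay close, with a log2 fold change of -0.13 ± 0.13 (SE). DN10003_c0_g1, matched to Sur-8, the scaffold that links Ras to Raf in worms, flies and mammals, held 31.4, 25.7 and 22.2 in the controls against 28.3, 24.2 and 28.0 in the immersion libraries. Its groups overlapped throughout and the log2 fold change was 0.02 ± 0.19 (SE).

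By a protein number or an IQ domain in the name, 4 members were placed with cilia or the axoneme, which their descriptions do not mention. Of these, 3 were tested, and none had an unadjusted p under 0.05 in edgeR (background in either direction 34.8%). DN12497_c0_g2, IQ domain-containing protein 4-like, held 50.04, 25.8 and 16.6 normalised CPM in the controls against 45.9, 54.8 and 46.9 in the immersion libraries. Control 1 lay inside the immersion range while controls 2 and 3 lay well below it. The log2 fold change was 0.67 ± 0.37 (SE), -0.03 against control 1 alone, and 1.21 without control 1 with an edgeR adjusted p of 0.0088. DN2423_c0_g1, protein 49-like, whose mouse counterpart belongs to a complex that adds glutamates to tubulin, held 27.5, 22.8 and 15.3 in the controls against 23.6, 24.5 and 24.0 in the immersion libraries. DN5917_c0_g1, protein 9-like, held 3.63, 3.05 and 1.9 in the controls against 3.47, 3.50 and 2.21 in the immersion libraries. In both the groups overlapped, with log2 fold changes of 0.13 ± 0.24 and 0.09 ± 0.33 (SE). Among 84 genes of axonemal dyneins, intraflagellar transport and related structures, 39 were tested, with a median log2 fold change of 0.21 and with 3 lower (background 20.6%) and 8 higher (background 14.2%) at an unadjusted p under 0.05.

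The remaining 30 members carry only a protein number or another name, and 27 were tested. At an unadjusted p under 0.05, 7 of these were lower (background 20.6%) and 4 were higher (background 14.2%), shares near those of all bee genes. The median log2 fold change was 0.20.

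The most negative fold changes belonged to 2 of the 3 tested genes described as protein 24. DN6105_c0_g1 held 2.63, 3.61 and 4.09 normalised CPM in the controls against 0.725, 0.927 and 1.13 in the immersion libraries. Every control lay well above every immersion library, control 1 included. The control mean was 3.71-fold higher (3.44 ± 0.743 against 0.928 ± 0.203, SD, n = 3 each), and the log2 fold change was -1.88 ± 0.32 (SE) with an edgeR adjusted p of 0.0705. DN7806_c1_g2 held 1.06, 1.62 and 1.69 in the controls against 0.570, 0.154 and 0.485 in the immersion libraries, a log2 fold change of -1.84 ± 0.48 (SE). These rest on few reads, in DN7806_c1_g2 on 17.4, 26 and 24 estimated counts in the controls against 11, 3.04 and 9 in the immersion libraries. The KEGG entry of both is kekkon-1, which in Drosophila is a transmembrane protein with leucine-rich and immunoglobulin parts that restrains the epidermal growth factor receptor. Against control 1 alone the differences were -1.5 and -1.39. Another tested entry described as protein 24, DN7806_c1_g4 of the same component as DN7806_c1_g2, is named here after its values were seen. It held 0.313, 0.871 and 1.34 in the controls against 0.311, 0.618 and 0.215 in the immersion libraries, so the groups overlapped. Its log2 fold change was -1.11 ± 0.62 (SE), and against control 1 alone it was 0.29, the other way.

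The most abundant members of the group were also lower on average. DN1826_c0_g1, the protein 15-like entry, held 1451, 1912 and 2727 normalised CPM in the controls against 1301, 1297 and 1081 in the immersion libraries. The groups did not overlap, but control 3 lay far above control 1, and the log2 fold change was -0.73 ± 0.26 (SE) with an edgeR adjusted p of 0.115. DN1484_c0_g1, extensin-like protein 2, held 386, 535 and 728 in the controls against 333, 295 and 361 in the immersion libraries, a log2 fold change of -0.74 ± 0.25 (SE). In both, the difference against control 1 alone was small, at -0.24 and -0.23. The fat body marker with the highest level, vitellogenin (DN7540_c0_g1), held 15280, 28040 and 65400 normalised CPM in the controls against 9458, 9807 and 7524 in the immersion libraries. Other fat body markers were mixed. The apolipophorins gene DN1986_c0_g2 also rose from control 1 to 3, at 4092, 6853 and 14010 against 2497, 2256 and 2373 in the immersion libraries. In vitellogenin-like DN2590_c0_g1 the groups overlapped, at 122, 110.0 and 96.8 in the controls against 108, 100.2 and 127 in the immersion libraries. All 7 markers were tested, with a median log2 fold change of -1.15 and with 4 lower (background 20.6%) and 0 higher (background 14.2%) at an unadjusted p under 0.05, and they summed to 5572, 9953 and 28620 TPM in controls 1 to 3 and to 6753, 7607 and 5907 TPM in the immersion libraries. Their part in the members' differences was not tested.

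Higher means were seen among the entries named after DDB_G0290503. All 5 tested had positive log2 fold changes, from 0.25 to 0.67 (background above 0, 51.2%). Against control 1 alone, DN3866_c1_g1 and DN5195_c0_g1 were both at -0.046, DN8633_c0_g1 at 0.215 and DN7227_c0_g1 at 0.266. DN3122_c0_g1 held 10.1, 7.53 and 6.69 normalised CPM in the controls against 12.2, 12.5 and 14.2 in the immersion libraries. The groups did not overlap, and the log2 fold change was 0.67 ± 0.23 (SE) with an edgeR adjusted p of 0.11, or 0.35 against control 1 alone. It was the only member that DESeq2 called higher, with an adjusted p of 0.0392. None of the 5 has a repeat in its domain columns, so they share a description rather than a shown leucine-rich repeat.

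DN2845_c0_g1, protein 59, had the most positive log2 fold change of all members and is named here after its values were seen. LRRC59 is a membrane protein of the endoplasmic reticulum that binds ribosomes in mammals. It held 37.8, 28.3 and 17.2 normalised CPM in the controls against 44.9, 54.0 and 45.2 in the immersion libraries, with no overlap and a log2 fold change of 0.79 ± 0.28 (SE). DN1659_c0_g1, another protein 15-like entry, held 95.5, 60.9 and 57.7 in the controls against 99.7, 91.3 and 89.4 in the immersion libraries. DN247_c0_g1, a homolog of human C10orf11 (LRMDA), which is needed for pigment cell differentiation, held 65.6, 44.5 and 25.9 in the controls against 67.8, 67.0 and 65.0 in the immersion libraries. In DN1659_c0_g1 and DN247_c0_g1 control 1 lay within or close to the immersion range, and the log2 fold changes were 0.39 ± 0.21 and 0.55 ± 0.31 (SE). DN2603_c0_g2, also described as C10orf11 and with that Swiss-Prot symbol, is named here after its values were seen. It was lower after immersion, at 29.4, 30.1 and 26.5 in the controls against 23.6, 26.0 and 25.5 in the immersion libraries. Its groups did not overlap, and the log2 fold change was -0.195 ± 0.158 (SE).

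Some named intracellular proteins lay further in, and those given here were picked after their values were seen. DN961_c0_g1, protein 16A, matches CARMIL1, which in mammals removes capping protein from actin filaments. It held 56.9, 60.5 and 76.8 normalised CPM in the controls against 48.1, 42.7 and 51.4 in the immersion libraries, a log2 fold change of -0.45 ± 0.17 (SE). DN3290_c0_g1, protein 47, carries a domain listed for the beta chain of phenylalanyl-tRNA synthetase. It held 37.9, 23.8 and 21.3 in the controls against 45.1, 45.4 and 40.8 in the immersion libraries, a log2 fold change of 0.66 ± 0.24 (SE). DN1746_c0_g1, protein 40-like, held 14.3, 8.21 and 4.30 in the controls against 14.8, 14.6 and 16.1 in the immersion libraries. In all 3 the groups did not overlap, and control 1 was the control nearest to the immersion libraries.

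The position of control 1 is given here for the members beside all tested bee genes. The immersion mean was within 0.5 log2 units of control 1 in 39 of the 49 tested members (background 83.6%), and within 0.5 log2 units of the mean of controls 2 and 3 in 15 (background 38.5%). Control 1 was nearer to the immersion mean than to the mean of controls 2 and 3 in 36 members (background 74.3%). These shares were near those of all bee genes. In 4 members the immersion mean was lower by 1 log2 unit or more both than control 1 and than the mean of controls 2 and 3 (background 1.08%), and in 0 members it was that much higher than both (background 0.259%). The 4 were DN17969_c0_g1, DN1218_c0_g1, DN6105_c0_g1 and DN7806_c1_g2. Of the other tested members, 3 were lower by more than 0.5 log2 units than control 1. In the same order of comparison these were DN3828_c0_g1 at -1.02 and -0.45, DN4613_c0_g3 at -0.96 and -0.64, and DN4953_c0_g1, extensin-like protein 3, at -0.82 and -0.89.

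**Figure D4:**
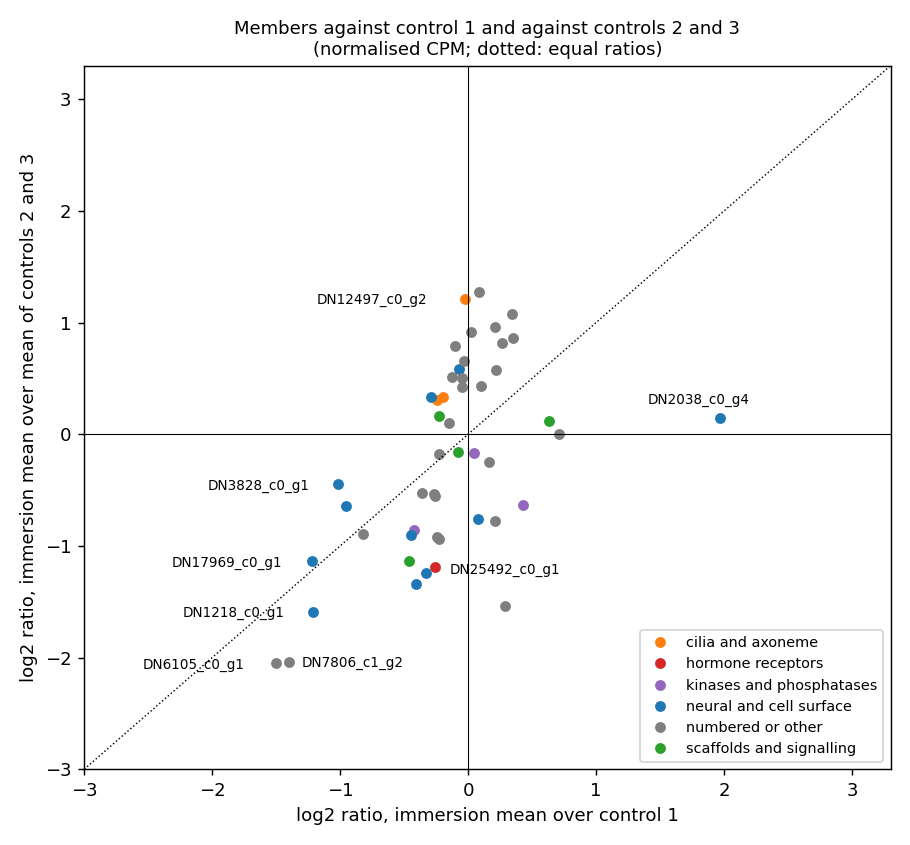
Each point is a tested member, with the log2 ratio of the immersion mean to control 1 on the horizontal axis and to the mean of controls 2 and 3 on the vertical axis (normalised CPM, coloured by role, dotted line at equal ratios). Most points stand in a vertical band near 0 on the horizontal axis, 39 of 49 within 0.5 (background 83.6%). At or below -1 on both axes lie 4 members (background 1.08%).

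Assembled length moved with the fold change over the tested bee genes. Across genes, which are not independent replicates, Spearman's rho between log2 fold change and length was -0.49 over 9250 bee genes and -0.24 over the 49 members, a difference that was not tested. Under 2000 bases the median log2 fold change was -0.001 in 18 members and 0.41 in 3383 bee genes. From 2000 to 4000 bases it was 0.17 in 18 members and 0.09 in 3368 bee genes. From 4000 bases it was -0.73 in 13 members and -0.48 in 2499 bee genes. Below 0 were 11 of these 13 members (84.6%) and 83.5% of the 2499 bee genes, so the shares were near each other. DN1218_c0_g1 has 6339 bases and DN17969_c0_g1 has 4066. With the length trend removed, edgeR called these as the only 2 members, at log2 fold changes of -0.95 and -0.97 with adjusted p-values of 0.0462 and 0.0465 (background lower 0.281%, higher 0%). DN1826_c0_g1, with 8257 bases, and the lrk-1 match then stood at -0.06 and -0.08. The same removal brought DN3627_c0_g1 to -0.31, DN3849_c0_g3 to -0.38, DN1484_c0_g1 to -0.29 and DN625_c0_g1 to -0.61. Members under 4000 bases could move the other way, DN1662_c0_g2 to -0.95 and DN4613_c0_g3 to -1.12, and DN6105_c0_g1 stood at -2.11.

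**Figure D5:**
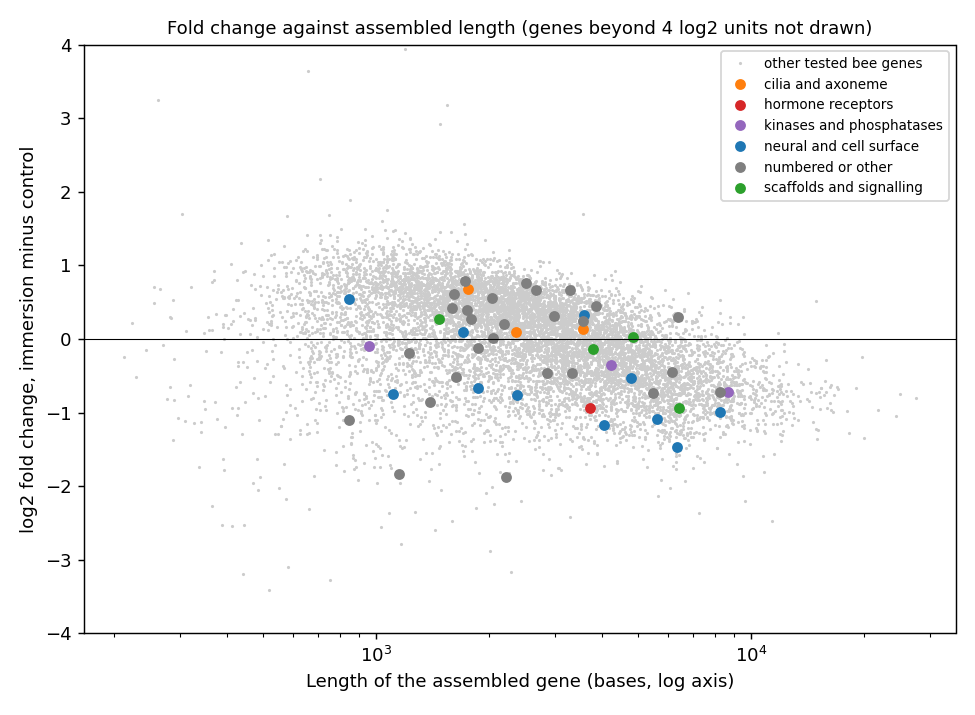
The log2 fold change, immersion minus control, of each tested bee gene is plotted against its assembled length in bases on a log axis, with members coloured by role over all others in grey. The grey cloud slopes downward (Spearman's rho -0.49), and from 4000 bases the members have a median of -0.73 and all tested bee genes one of -0.48.

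Other leucine-rich repeat proteins, whose descriptions lack the phrase, numbered 50 with 41 tested. They had a median log2 fold change of -0.52, with 21 lower (background 20.6%) and 1 higher (background 14.2%) at an unadjusted p under 0.05. None passed the adjusted test in edgeR, while DESeq2 called 13 of 39 lower (background 15.5%) and 1 higher (background 7.51%). Toll (DN2405_c0_g2), the fly receptor of innate immunity and early patterning, held 155 ± 21.6 normalised CPM in the controls against 110.1 ± 17.6 in the immersion libraries (SD, n = 3 each). Slit (DN1621_c0_g1), the axon guidance ligand, held 27.6, 56.8 and 105 in the controls against 21.0, 19.7 and 22.1 in the immersion libraries. A shorter slit entry of the same component, DN1621_c0_g2, held 4.57, 4.29 and 4.93 in the controls against 4.14, 4.79 and 5.98 in the immersion libraries. Its groups overlapped, with a log2 fold change of 0.11 ± 0.24 (SE), so the pieces did not share a direction. With the worm-count term, 0 of the 41 had an unadjusted p under 0.05 in either direction (background 4.89% lower, 2.71% higher).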

How the data were processed

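The deposited table gives, for each de novo assembled gene, estimated counts and TPM per library, both made by the authors, with a gene length and protein annotations. Trimming with cutadapt 1.9, quantification tools (Salmon) and edgeR are listed in the submitters' processing notes, and the assembler is not given in the sources used here. Members, roles, marker lists and comparisons were chosen with earlier results of these data known. The deposited estimated counts were rounded to whole numbers. Genes matching Hymenoptera were filtered on low counts (filterByExpr), scaled by TMM factors and tested in edgeR 4.0.16 (R 4.3.3), quasi-likelihood, 3 control against 3 immersion libraries, two-sided, with Benjamini-Hochberg adjustment over 9250 genes. SE is the log2 fold change over the square root of the F statistic. TPM, as deposited by the authors, was used for levels between genes. The authors' deposited length per gene, in bases, was used for the length trend, a loess curve of span 0.3. The edgeR fit without the length trend was tested on simulated data, and the removal of the length trend was not. Alternatives were other normalizations and filters, DESeq2 1.42.0, limma 3.58.1 on log2 TPM, a term for libraries with worm counts, and leaving out each library. Named members were, within each role, up to 4 with the highest mean TPM and up to 4 with the smallest p, every receptor, and up to 10 called by DESeq2 without overlap between groups. By this rule 25 members were named. Estimated counts are not separate molecules, and no sequences were used here.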

Additional observations from a re-analysis of the deposited data

Results flagged for a closer look

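Leucine-rich repeat genes outside the bee matches were also present. The 7 that match Caenorhabditis summed to 39.0, 25.1 and 32.9 TPM in immersion libraries 1 to 3, a mean of 32.3 TPM, and to 9.26, 0 and 0 TPM in controls 1 to 3. They drew attention because they belong to no comparison of the report and lie above the controls. The 7 that match neither a listed bee genus nor a worm summed to 22.7, 16.4 and 12.3 TPM in the immersion libraries and to 39.8, 0 and 0 TPM in the controls, so control 1 alone among the controls held both.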

How the results depend on the processing

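With all 6 libraries, edgeR called 0 members and 0 bee genes under TMM or RLE normalization, with or without a filter on low counts, over all genes of the table and with limma on log2 TPM. DESeq2 called 12 members and 2042 bee genes, the fit with the length trend removed 2 and 26, and the fit with a worm-count term 0 and 1. Leaving out 1 library gave 0 to 25 members and 0 to 4912 bee genes, with the highest values without control 1, then 5 and 362 without control 3, and 0 without any other library. The members' median log2 fold change was -0.16 under RLE and under DESeq2, -0.18 without a filter on low counts, and between -0.16 and -0.11 with 1 library left out. Correlations of same-numbered deviations were -0.154, 0.141 and 0.164, and those of other-numbered ones ran from -0.293 to 0.235. With 3 libraries a group, these values cannot show whether the libraries were paired. With a replicate block 0 members and 0 bee genes were called and the members' median was -0.13.

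Signs turned in the following named members. With the length trend removed these were DN5917_c0_g1 (-0.054), DN16512_c0_g1 (-0.208), DN1541_c0_g1 (0.032) and DN3849_c0_g2 (-0.127). With the worm-count term they were DN5917_c0_g1 (-0.244), DN2423_c0_g1 (-0.197), DN12497_c0_g2 (-0.025), DN6885_c0_g1 (0.425), DN6885_c0_g3 (0.037), DN16512_c0_g1 (-0.294), DN1659_c0_g1 (-0.030) and DN10003_c0_g1 (-0.227). DN10003_c0_g1 was at -0.008 under RLE and under DESeq2, and at -0.022 and -0.020 on log2 TPM with pseudocounts of 0.1 and 1. With 1 library left out, DN5917_c0_g1 ran from -0.124 to 0.301, DN2423_c0_g1 from -0.068 to 0.332, DN16512_c0_g1 from -0.072 to 0.336, DN10003_c0_g1 from -0.090 to 0.165 and DN6885_c0_g3 from -0.467 to 0.208. The cause was not tested.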

Other observations

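Of 38 muscle genes 34 were tested, with a median log2 fold change of -0.88 and with 21 lower (background over all tested bee genes 20.6%) and 0 higher (background 14.2%) at an unadjusted p under 0.05. Their summed level overlapped between the groups, at 21850, 21120 and 19940 TPM in controls 1 to 3 against 20920, 16150 and 27760 TPM in the immersion libraries, with 2 genes at 0 in every library. DN3299_c0_g1, described as titin, the elastic filament of the sarcomere, but with the Swiss-Prot symbol Zasp52, a Z-disc protein in Drosophila, held 1994, 2576 and 3436 normalised CPM in the controls against 999.9, 711 and 998.9 in the immersion libraries.

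The chaoptin-like gene DN3603_c0_g1, whose fly namesake is a repeat protein on photoreceptor membranes, held 11.5, 17.8 and 22.2 normalised CPM in the controls against 5.64, 8.60 and 7.59 in the immersion libraries. Its log2 fold change of -1.24 ± 0.30 (SE) was the most negative among the tested chaoptin entries, which reached up to -0.28 in DN18915_c0_g4. The entry with the Swiss-Prot symbol chp, DN11738_c0_g1, was at -0.54 ± 0.19 (SE), and in several entries the groups overlapped. An F-box gene matched to FBXL12, DN25081_c0_g1, was the only 1 of the 41 tested repeat proteins outside the members with a higher mean at an unadjusted p under 0.05. It held 40.5, 26.4 and 21.6 in the controls against 50.2, 54.5 and 54.9 in the immersion libraries, a log2 fold change of 0.85 ± 0.24 (SE).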
